A study of Mus musculus with 6 samples.

Results

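The Krüppel-like factors (KLFs) are transcription factors that end in a row of zinc fingers and bind GC-rich and CACCC-containing DNA. Their transcripts were read in bulk RNA sequencing of LβT2 cells, a mouse gonadotrope line immortalized by a viral oncogene. The 10 family genes described are *Klf2*, *Klf3*, *Klf4*, *Klf6*, *Klf7*, *Klf9*, *Klf10*, *Klf11*, *Klf13* and *Klf16*, taken by symbol from the 47069 genes of the count table. All 10 were expressed well enough to be tested, so none was lost to the filter on low counts.

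The zinc fingers of the family are closely alike, whereas the parts before them differ and recruit different partners. KLF2, KLF4, KLF6 and KLF7 act mainly as activators and KLF3 as a repressor that recruits CtBP, while KLF9, KLF10, KLF11, KLF13 and KLF16 share a motif that recruits the SIN3 histone deacetylase complex. Several family genes, *Klf2*, *Klf4*, *Klf6* and *Klf10* among them, are known as early response genes whose short-lived transcripts rise within minutes of a growth factor or hormone.

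The comparison asked whether a preservative alters the transcripts that are read. Cells of passage 14 were grown over 2 days and given gonadotropin-releasing hormone (GnRH) at 2 nM over 40 min, in both groups. In the fresh group (n = 3 libraries) the pelleted cells went straight into guanidinium thiocyanate lysis buffer, and in the RNA-Best group (n = 3) they were kept in RNA-Best, a proprietary stabilizing reagent, at 4 °C over at least 4 days and then lysed in the same way. No library without GnRH was analysed here, so induction by the hormone could not be measured, and a single immortalized line stands for the gonadotrope.

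Libraries held from 14477304 to 47438746 counts in the fresh group and from 4909418 to 11999363 counts in the RNA-Best group. At these depths 1 count equals 0.0211 to 0.204 counts per 1000000 counts of the library (CPM), so *Klf2* and *Klf4*, with as few as 11 and 29 counts in RNA-Best replicate 2, were the least precisely read. The labels do not say whether replicates came from separate cultures, so p-values measure the spread between these libraries, which may be technical. In bulk RNA, fewer cells expressing a gene and less RNA per cell cannot be told apart.

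The line carried most gonadotrope markers. *Cga*, the gonadotropin alpha subunit, was at 1813 CPM on average in fresh libraries and 1426 CPM after RNA-Best, and *Gnrhr*, the GnRH receptor, at 119 and 164 CPM. The pituitary transcription factor genes *Pitx1* and *Gata2* were at 673 and 530 CPM in the fresh group and 582 and 509.9 CPM in the RNA-Best group. *Fshb*, the follicle-stimulating hormone beta subunit, had 0 counts in all libraries, which allows up to 0.0632 CPM in the deepest of them. Markers of other pituitary hormone cells, blood and fibroblasts summed to at most 2.39, 4.07 and 0.271 CPM. Endothelial markers were mixed: *Cdh5* was at 149 CPM in the fresh group and 163 CPM in the RNA-Best group, *Pecam1* at 42.4 and 38.9 CPM, whereas *Kdr* was at 1.34 and 1.62 CPM and *Tek* at 0.0695 and 0.0679 CPM. The 4 endothelial markers summed to 191 to 193 CPM in fresh and 196 to 209 CPM in RNA-Best libraries. Their part in the levels of *Klf2* and *Klf4*, both known from endothelium, was not tested.

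The DNA that encodes the last of the 3 zinc fingers is given here to show how far the members share it, since reads from shared stretches could be mistaken between genes. Each sequence is the coding strand of the GENCODE annotation of GRCm38, 63 bases long, and capitals mark the codons of the 2 cysteines and 2 histidines that hold the zinc. All lie in coding exons, and those of *Klf6* and *Klf7* are interrupted by an intron.
Klf2, chr8:72320851-72320913 (+): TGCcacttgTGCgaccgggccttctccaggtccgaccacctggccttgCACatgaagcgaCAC
Klf4, chr4:55528131-55528193 (-): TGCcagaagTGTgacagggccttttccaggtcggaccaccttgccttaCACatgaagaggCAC
Klf6, chr13:5866746-5867277 (+): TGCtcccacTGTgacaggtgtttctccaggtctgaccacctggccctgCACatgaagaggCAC
Klf7, chr1:64035719-64042330 (-): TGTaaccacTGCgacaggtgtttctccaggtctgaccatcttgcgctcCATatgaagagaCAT
Klf3, chr5:64829084-64829146 (+): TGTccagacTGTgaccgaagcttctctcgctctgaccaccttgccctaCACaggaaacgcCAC
Klf9, chr19:23164790-23164852 (+): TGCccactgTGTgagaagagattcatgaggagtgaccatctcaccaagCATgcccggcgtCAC
Klf10, chr15:38295995-38296057 (-): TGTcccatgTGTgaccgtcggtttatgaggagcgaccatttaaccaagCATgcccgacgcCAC
Klf11, chr12:24660290-24660352 (+): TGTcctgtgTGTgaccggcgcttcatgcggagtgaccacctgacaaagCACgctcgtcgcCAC
Klf13, chr7:63891628-63891690 (-): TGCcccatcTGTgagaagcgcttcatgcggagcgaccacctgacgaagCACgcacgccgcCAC
Klf16, chr10:80569053-80569115 (-): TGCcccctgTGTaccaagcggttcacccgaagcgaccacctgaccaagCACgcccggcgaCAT

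Over the whole 3-finger stretch of 243 bases, *Klf6* and *Klf7* were the most alike of the 45 pairs, with 81.1% identical bases, and *Klf7* and *Klf9*, tied with *Klf4* and *Klf9*, the least, with 57.2%. Pairs within the SIN3-binding group shared 64.6% to 76.1%, and pairs of a SIN3-binding gene with an activator 57.2% to 66.3%. *Klf3* shared 67.9% to 72.8% with the activators and 57.6% to 62.1% with the SIN3-binding genes. The longest run that any pair shared in this stretch was 26 bases. For 8 of the 10 genes no stretch as long as a sequencing read recurred in a transcript of another gene.

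The exceptions were *Klf3* and *Klf7*, each with an antisense neighbour. The gene *Gm26649* covers 3196 bases of the exons of *Klf7* on the opposite strand, and 37.0% of the read-length stretches of *Klf7* occur in it. *Gm20033* covers 404 bases of *Klf3*, and 2.63% of its stretches occur there. *Gm26649* was listed at 0 counts in all 6 libraries and *Gm20033* at 312 counts over all of them. The sources used here do not give the strand setting of the counting, so reads from both strands of these stretches cannot be told apart. Whether reads there went uncounted was not tested. If they did, the exonic lengths used below for *Klf3* and *Klf7* are too long. *Klf4* and *Klf13* held parts of counts in 4 libraries, although no read-length stretch of either recurred exactly in an annotated transcript of another gene. Sequence outside annotated transcripts and inexact matches were not searched.

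Of the 10 genes, 4 rose in RNA-Best libraries (*Klf3*, *Klf7*, *Klf9* and *Klf11*), 1 fell (*Klf16*) and 5 did not pass the test (*Klf2*, *Klf4*, *Klf6*, *Klf10* and *Klf13*), by edgeR's quasi-likelihood test at an adjusted p under 0.05. Among all 14736 genes tested, 50.8% were called in either direction, 26.0% higher and 24.8% lower, so that the family's share of calls was near that of all genes. The median log2 fold change of the 10 genes was 0.13, against -0.01 over all genes tested. The ranges of the groups did not overlap in 7 genes, 6 of them higher and 1 lower, where 57.5% of all genes did not overlap, 30.4% as higher and 27.1% as lower. Only *Klf7* changed by at least 2-fold, which together with an adjusted p under 0.05 was met by 1.40% of all genes as an increase.

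**Figure D1:**
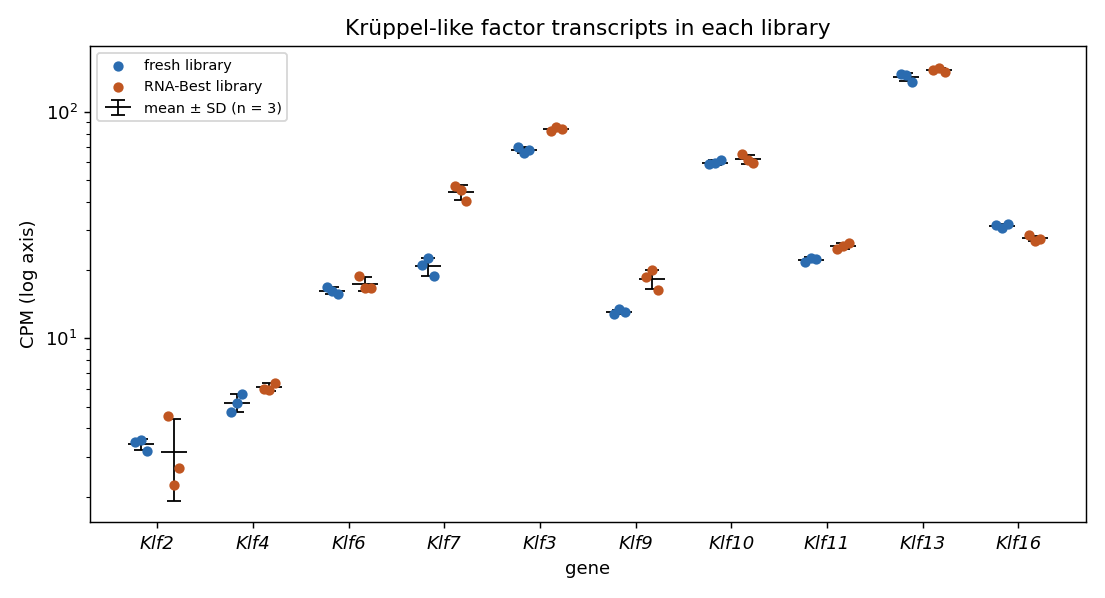
CPM of each of the 10 Krüppel-like factor genes in each of the 6 libraries, on a log axis, with 1 point per library and colours for fresh and RNA-Best. *Klf7* stands apart, at 18.9 to 22.5 CPM in fresh and 40.4 to 47.3 CPM in RNA-Best libraries, and *Klf2* has the widest spread, from 2.24 to 4.56 CPM among RNA-Best libraries.

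Among the activators, *Klf7* gave the clearest difference of the family. KLF7, once named ubiquitous Krüppel-like factor, is best known from neuronal differentiation, and its gene spans chr1:64029447-64122282 on the minus strand. *Klf7* was read at 21.0, 22.5 and 18.9 CPM in fresh replicates 1 to 3 and at 47.3, 45.0 and 40.4 CPM in RNA-Best replicates 1 to 3. Every RNA-Best library thus lay above every fresh library, and the lowest of the former was well above the highest of the latter. The means were 20.8 ± 1.85 CPM and 44.2 ± 3.51 CPM (SD, n = 3 each), a log2 fold change of 1.02 (SE 0.06, adjusted p = 2.9e-15), or 2.03-fold. The fold change of *Klf7* ranked 198 from the top among 14736 genes. It passed the test in all 18 alternative analyses, in which the log2 fold change lay between 0.71 and 1.19.

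*Klf6*, the nearest relative of *Klf7* by its zinc fingers and a known early response gene on chr13:5861482-5870394 (+), did not pass the test. It was at 16.9, 16.1 and 15.7 CPM in fresh and 18.9, 16.7 and 16.8 CPM in RNA-Best libraries. RNA-Best replicate 1 was the highest and the ranges overlapped. The log2 fold change was 0.08 (SE 0.08, adjusted p = 0.384).

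*Klf4*, one of the reprogramming factors, lies on chr4:55527143-55532466 (-). It was read at 4.75, 5.19 and 5.66 CPM in fresh and 5.98, 5.91 and 6.38 CPM in RNA-Best libraries. The ranges did not overlap, but at 29 to 246 counts per library the difference did not pass the test, with a log2 fold change of 0.25 (SE 0.13, adjusted p = 0.100).

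*Klf2*, on chr8:72319033-72321656 (+), is the flow-responsive factor of endothelium and the factor of T cell quiescence. It was at 3.48, 3.56 and 3.18 CPM in fresh libraries, which lay close together, and at 4.56, 2.24 and 2.67 CPM in RNA-Best libraries, which lay on both sides of the fresh ones. The coefficient of variation was 5.94% in the fresh group and 39.1% in the RNA-Best group, where counting error alone corresponds to 22.1%. The log2 fold change was -0.12 (SE 0.18, adjusted p = 0.608), and it was -0.46 (adjusted p = 0.0807) without RNA-Best replicate 1, -0.01 (adjusted p = 0.960) without replicate 2 and 0.09 (adjusted p = 0.782) without replicate 3 of that group.

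*Klf3*, the CtBP-recruiting repressor known from adipocytes and red blood cells, spans chr5:64803388-64832901 (+). Its values were 70.2, 65.7 and 67.6 CPM in fresh and 82.2, 85.3 and 83.7 CPM in RNA-Best libraries. The groups did not overlap, and the means of 67.8 ± 2.28 and 83.7 ± 1.58 CPM (SD, n = 3 each) gave a log2 fold change of 0.29 (SE 0.04, adjusted p = 5.5e-07). The call was lost with an offset for exonic length and was kept with one for the longest transcript.

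Among the SIN3-binding genes, *Klf9* had the highest fold change. KLF9 is a target of glucocorticoid and thyroid hormone receptors, encoded on chr19:23141226-23168134 (+). It was at 12.8, 13.4 and 13.1 CPM in fresh and 18.6, 20.0 and 16.3 CPM in RNA-Best libraries. The groups were separate, with RNA-Best replicate 3 the nearest to the fresh libraries. The means of 13.1 ± 0.314 and 18.3 ± 1.83 CPM (SD, n = 3 each) gave a log2 fold change of 0.43 (SE 0.08, adjusted p = 3.4e-05), and *Klf9* was called in all 18 alternative analyses at log2 fold changes of 0.31 to 0.53.

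*Klf10* and *Klf11* encode the TGFβ-inducible early gene products, which repress *Smad7* and other targets. *Klf10*, on chr15:38291463-38300706 (-), was at 58.7, 59.2 and 61.3 CPM in fresh and 64.9, 61.3 and 59.3 CPM in RNA-Best libraries. These ranges overlapped, and the log2 fold change was 0.04 (SE 0.05, adjusted p = 0.495). *Klf11*, on chr12:24651274-24662789 (+), was at 21.8, 22.7 and 22.3 CPM in fresh and 24.7, 25.7 and 26.3 CPM in RNA-Best libraries. The groups of *Klf11* were separate and the log2 fold change was 0.19 (SE 0.06, adjusted p = 0.0153). Without RNA-Best replicate 3, *Klf11* did not pass the test (log2 fold change 0.16, adjusted p = 0.131). It was called in 11 of the 18 alternatives and not, for example, by DESeq2 (adjusted p = 0.142) or after thinning to the smallest library (adjusted p = 0.277).

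*Klf16* was the gene that fell. KLF16 is a repressor first described at dopamine receptor promoters, encoded on chr10:80567124-80577321 (-). Its values were 31.6, 30.8 and 32.0 CPM in fresh and 28.5, 26.9 and 27.5 CPM in RNA-Best libraries. All RNA-Best libraries were below all fresh ones, with means of 31.5 ± 0.579 and 27.6 ± 0.812 CPM (SD, n = 3 each) and a log2 fold change of -0.19 (SE 0.06, adjusted p = 0.00729). The adjusted p was 0.0585 without RNA-Best replicate 3, where the log2 fold change was -0.18. *Klf16* was called in 12 of the 18 alternatives, and after thinning to the smallest library its log2 fold change was -0.08 (adjusted p = 0.570).

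*Klf13*, the most abundant of the 10 genes, encodes a factor known from *Ccl5* expression in T cells and lies on chr7:63886351-63938915 (-). It was at 147, 145 and 136 CPM in fresh and 152, 157 and 151 CPM in RNA-Best libraries. The groups did not overlap, but the log2 fold change of 0.07 (SE 0.04) had an adjusted p of 0.0764. It passed the test as higher without fresh replicate 1 (log2 fold change 0.09, adjusted p = 0.0423).

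**Figure D2:**
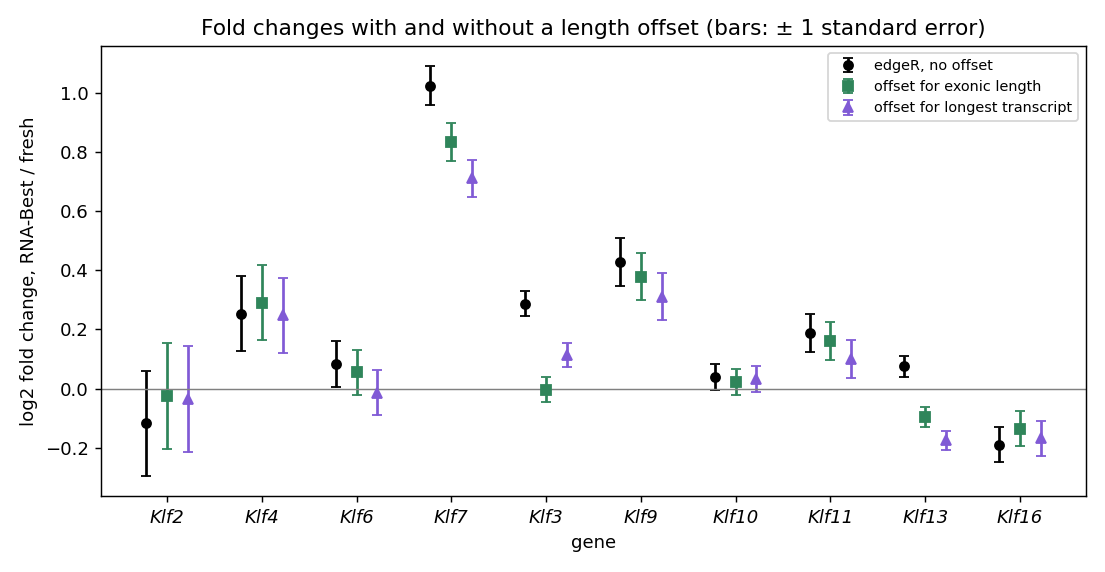
Log2 fold change of RNA-Best over fresh libraries for each of the 10 genes, with 1 standard error on either side. Values come from the edgeR fit without an offset, with one for exonic length and with one for the longest transcript. *Klf7* is highest in each, at 1.02, 0.83 and 0.71. In the same order *Klf3* is at 0.29, -0.00 and 0.11, and *Klf13* at 0.07, -0.09 and -0.18.

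The fold change of a gene between the groups went with its exonic length, which matters for a family whose members range from 1847 bp (*Klf2*) to 11243 bp (*Klf3*). Over all genes, the median log2 fold change was -0.18 at 1000 to 2000 bp, the class of *Klf2*, and -0.10 at 2000 to 4000 bp, the class of *Klf4* and *Klf16*. It was 0.07 at 4000 to 8000 bp, which holds *Klf6*, *Klf9*, *Klf10*, *Klf11* and *Klf13*, and 0.26 above 8000 bp, which holds *Klf3* and *Klf7*. *Klf3* thus lay close to the median of its class, while 36 of the 2297 genes in that class had a higher log2 fold change than *Klf7*. *Klf16* was below and *Klf9* above the median of genes of like length.

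With an offset for length in the fit, 3 of the 10 genes were higher (*Klf7*, *Klf9* and *Klf11*) and 1 was lower (*Klf13*), beside 40.8% of all genes in either direction, 15.4% higher and 25.4% lower. *Klf7* kept a log2 fold change of 0.83 (SE 0.06, adjusted p = 4.2e-12) and *Klf9* one of 0.38 (SE 0.08, adjusted p = 0.000275). *Klf3* lost its difference, at -0.00 (SE 0.04, adjusted p = 0.955), and *Klf16* was at -0.14 (adjusted p = 0.0638). *Klf13* changed sign to -0.09 (adjusted p = 0.0236), so no direction is given for it.

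The length used for *Klf3* joins the exons of 9 annotated transcripts, 4 of them protein-coding, and its longest single transcript has 5221 bp. With longest transcripts in the offset, *Klf3* was higher at 0.11 (adjusted p = 0.0289), *Klf11* was not called at 0.10 (adjusted p = 0.231), and *Klf13* and *Klf16* were lower at -0.18 (adjusted p = 7.0e-05) and -0.17 (adjusted p = 0.0221). *Klf7* and *Klf9* were again called, at 0.71 and 0.31. With this offset 37.6% of all genes were called, 14.0% higher and 23.6% lower.

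**Figure D3:**
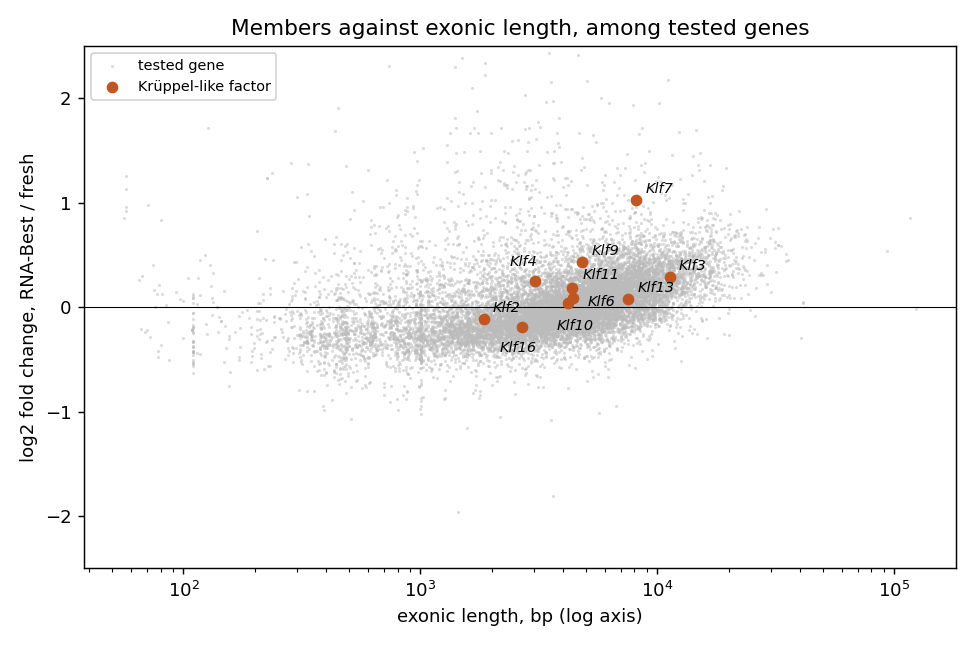
Log2 fold change of RNA-Best over fresh libraries against exonic length (log axis), with 14684 tested genes in grey and the 10 Krüppel-like factor genes named; 5 genes lie outside the axis limits of 2.5 in either direction. *Klf7*, at 1.02 and 8131 bp, lies above most genes of its length, and *Klf3*, at 0.29 and 11243 bp, lies among them.

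An offset for GC content gave another split, with 5 genes higher and 0 lower (0 also at an unadjusted p under 0.05 in edgeR), beside 48.2% of all genes in either direction, 21.8% higher and 26.4% lower. By limma-voom 4 genes were higher and 1 lower, where 50.6% of all genes were called, 26.4% higher and 24.3% lower. By the Wald test of DESeq2 3 were higher and 0 lower (1 at an unadjusted p under 0.05), where 35.3% of 16155 genes were called, 18.1% higher and 17.2% lower. *Klf4* (0.31, adjusted p = 0.0450) and *Klf13* (0.14, adjusted p = 0.0013) passed the test as higher with the GC offset, and *Klf16*, whose exons hold 60.4% GC, was at -0.07 (adjusted p = 0.370). *Klf3*, *Klf7* and *Klf9* were called higher there too. *Klf7* and *Klf9* were therefore the members called in the same direction in every fit, whereas *Klf3* was called in 16, *Klf11* in 11 and *Klf16* in 12 of the 18 alternatives.

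Levels of different genes were compared as CPM per kb of exonic length. In fresh libraries the order was *Klf13* (18.9 ± 0.826), *Klf10* (14.3 ± 0.334), *Klf16* (11.8 ± 0.216), *Klf3* (6.03 ± 0.203), *Klf11* (5.13 ± 0.111), *Klf6* (3.70 ± 0.138), *Klf9* (2.72 ± 0.0652), *Klf7* (2.56 ± 0.227), *Klf2* (1.84 ± 0.110) and *Klf4* (1.71 ± 0.150), each as mean CPM per kb ± SD (n = 3). Of the 9 pairs of neighbours in this order, *Klf9* and *Klf7* as well as *Klf2* and *Klf4* overlapped between libraries, and the other pairs were apart. SIN3-binding repressor genes held the first 3 places.

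In RNA-Best libraries the first 5 places were the same and *Klf7* stood sixth, at 5.44 ± 0.431 CPM per kb (SD, n = 3), next to *Klf11* above it (5.89 ± 0.176), and their libraries overlapped. It was followed by *Klf6* (3.98 ± 0.289) and *Klf9* (3.80 ± 0.380), which overlapped, and by *Klf4* (2.00 ± 0.0824) and *Klf2* (1.71 ± 0.668), which overlapped as well. As a part of the summed level per kb of the 10 genes, *Klf7* made up 3.72 ± 0.304% in the fresh and 7.18 ± 0.383% in the RNA-Best group, and *Klf16* 17.1 ± 0.437% and 13.6 ± 0.339%. The summed level was 68.7 ± 0.641 and 75.7 ± 2.07 CPM per kb. With the length of the longest transcript, *Klf3* moved up to the third place in both groups, at 13.0 ± 0.437 and 16.0 ± 0.303 CPM per kb.

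**Figure D4:**
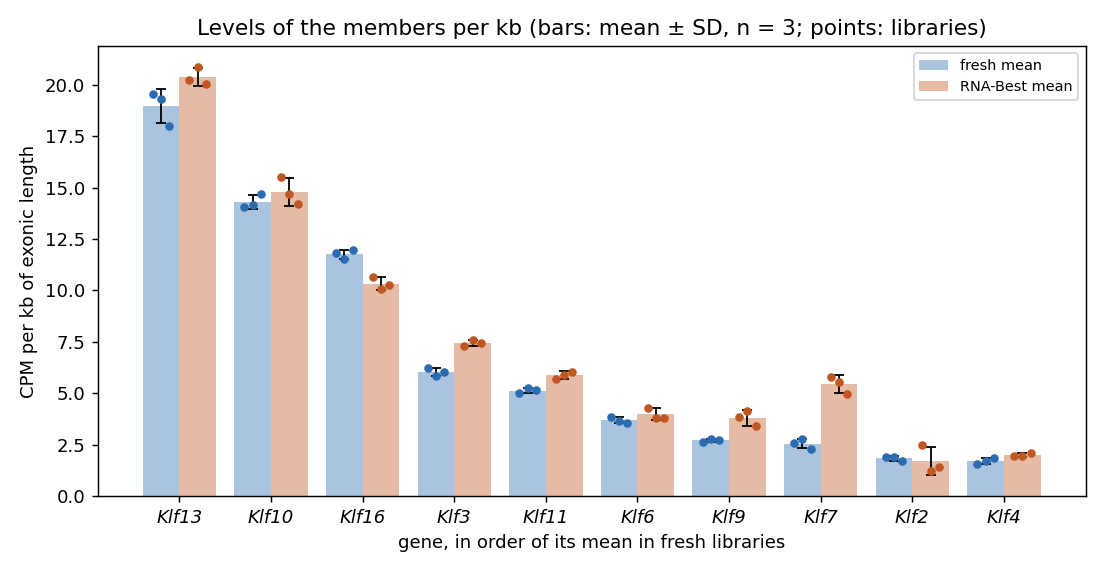
Level of each of the 10 genes in CPM per kb of exonic length, as bars for the mean with SD (n = 3) and points for the libraries, in the order of the fresh group. *Klf13* leads both groups at 18.9 and 20.4 CPM per kb, and *Klf7* is at 2.56 in the fresh and 5.44 in the RNA-Best group.

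The relation between close relatives was read as the log2 ratio of their CPM in each library. The ratios are not corrected for length. *Klf6* over *Klf7* was -0.32, -0.48 and -0.27 in fresh and -1.32, -1.43 and -1.27 in RNA-Best libraries, so the groups were separate and differed by -0.99. In edgeR with the length offset, the log2 fold changes of *Klf6* and *Klf7* were 0.05 and 0.83. With longest transcripts they were -0.01 and 0.71. *Klf10* over *Klf11* was 1.42 ± 0.04 in fresh and 1.27 ± 0.11 in RNA-Best libraries (SD, n = 3), with a difference of -0.15, and *Klf2* over *Klf4* was -0.61 ± 0.20 and -1.02 ± 0.54, with a difference of -0.41, which was -0.72 when RNA-Best replicate 1 was left out and -0.22 when replicate 2 of that group was. An exact two-sided permutation test of 3 libraries against 3 can give no p below 0.1, and it gave that smallest value for *Klf6* over *Klf7*, 0.2 for *Klf10* over *Klf11* and 0.4 for *Klf2* over *Klf4*. Adjusted over the 3 pairs these were 0.3, 0.3 and 0.4.

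The DNA before the transcription start was examined because KLF proteins bind GC boxes and CACCC boxes, also at their own genes. RefSeq promoters on GRCm38.p6, from 250 bases before to 50 bases after the start, were matched for 8 members, and *Klf10* and *Klf16* had no entry. A GC box (GGGCGG, either strand) was present in 7 of the 8 and in 35.6% of 32817 promoters. A CACCC box (CACCC, either strand) was present in 5 of 8 and in 57.5% of promoters, and the cyclic AMP response element core TGACG in 5 of 8 and 20.8%. The Egr site GCGNGGGCG, which a GC box can overlap, was found in 3 of 8 and 5.56%. The AP-1 site TGANTCA was in 1 of 8, *Klf9*, and in 7.81% of promoters. The CArG box and the full element TGACGTCA were in none of the 8, and in 1.63% and 1.79% of promoters, which says only that those letters are not in these windows.

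The non-exonic bases before the RefSeq starts of *Klf7* and *Klf9*, the members called in every fit, are shown with GC boxes and TGACG in capitals. The window of *Klf7* ends just before its longest annotated transcript and lies in an intron of another transcript that starts further upstream. The window of *Klf7* holds 1 GC box, and that of *Klf9* holds no GC box and 1 TGACG. Other motifs, such as CACCC and the AP-1 site, stand in lower case.
Klf7, chr1:64121492-64121639 (-): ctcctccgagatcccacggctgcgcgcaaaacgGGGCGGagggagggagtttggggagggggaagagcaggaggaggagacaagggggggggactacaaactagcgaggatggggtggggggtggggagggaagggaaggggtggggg
Klf9, chr19:23140976-23141225 (+): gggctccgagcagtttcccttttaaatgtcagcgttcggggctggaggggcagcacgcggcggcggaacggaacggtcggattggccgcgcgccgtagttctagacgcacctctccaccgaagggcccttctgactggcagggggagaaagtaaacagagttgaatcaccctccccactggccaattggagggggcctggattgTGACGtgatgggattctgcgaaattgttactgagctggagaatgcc

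Of the other 7 family genes, *Klf5* and *Klf8* were expressed enough to be tested. *Klf5*, a factor of proliferating epithelium, rose from 1.90 ± 0.304 to 3.29 ± 0.116 CPM (SD, n = 3 each), a log2 fold change of 0.72 (SE 0.18, adjusted p = 0.000911), and stayed called with the length offset (0.66, adjusted p = 0.00328). *Klf8* was at 2.48 ± 0.381 and 2.85 ± 0.507 CPM, with a log2 fold change of 0.21 (adjusted p = 0.385). *Klf1*, the erythroid factor, had 1 to 11 counts per library, and *Klf14* had 0 counts in all of them.

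The Sp factors share the 3 zinc fingers and the GC box with the KLFs. Of 9 listed, 4 were tested, 3 rose and 1 did not pass the test, where 26.0% of all genes were higher and 24.8% lower. *Sp1* was at 119 ± 2.87 CPM in fresh and 152 ± 2.21 CPM in RNA-Best libraries (SD, n = 3 each), a log2 fold change of 0.33 (adjusted p = 3.6e-10). *Sp3* rose by 0.36 (adjusted p = 5.2e-10) and *Sp4*, named after its value was seen, by 0.42 (adjusted p = 7.0e-06), whereas *Sp2* was at 0.08 (adjusted p = 0.320). The same 3 were higher with the length offset, *Sp1* at 0.13, *Sp3* at 0.31 and *Sp4* at 0.32, beside 15.4% of all genes. With longest transcripts in the offset *Sp1* was not called (0.01, adjusted p = 0.877), while *Sp3* (0.27) and *Sp4* (0.22) were.

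Of 10 cofactor genes, all tested, 5 rose, 3 fell and 2 did not pass the test, beside 26.0% of all genes higher and 24.8% lower. *Sin3a*, the scaffold that KLF9, KLF10, KLF11, KLF13 and KLF16 recruit, rose by 0.17 (adjusted p = 3.6e-05), from 131 ± 1.10 to 149 ± 3.03 CPM (SD, n = 3 each). The other 4 that rose, named after their values were seen, were the acetyltransferase genes *Ep300* (0.58, adjusted p = 2.7e-14), *Crebbp* (0.33, adjusted p = 5.0e-09) and *Kat2b* (0.18, adjusted p = 0.00019) and the corepressor gene *Ctbp2* (0.11, adjusted p = 0.0407). *Ep300* was also higher with the length offset (0.22) and with longest transcripts (0.18), whereas *Crebbp* changed sign, to -0.02 (adjusted p = 0.760) and -0.11 (adjusted p = 0.0192). *Hdac1*, a deacetylase gene of the SIN3 complex, fell by 0.15 (log2 scale, adjusted p = 0.000189) and, of further genes of the complex, so did *Sin3b* (-0.13, adjusted p = 0.0156) and *Sap30* (-0.29, adjusted p = 0.00585), both named after their values were seen. *Ctbp1*, the corepressor of KLF3, was at -0.07 (adjusted p = 0.0522). With the length offset 3 cofactor genes were higher and 4 lower, where 15.4% and 25.4% of all genes were. *Ctbp1* was called lower in that fit (-0.10, adjusted p = 0.00509), and *Sap30* lost its call (-0.17, adjusted p = 0.136). With longest transcripts *Sin3a* (0.00, adjusted p = 0.970), *Kat2b* (0.05, adjusted p = 0.302) and *Hdac1* (-0.08, adjusted p = 0.0513) were not called. *Ctbp2* was called with neither offset (adjusted p = 0.865 and 0.324). *Hdac2*, the other deacetylase gene of the list, named after its value was seen, was at -0.08 (adjusted p = 0.153) and was called lower with the length offset (-0.11, adjusted p = 0.0455).

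Both listed ubiquitin ligase genes for KLF proteins rose, beside 26.0% of all genes, *Wwp1* by 0.33 (adjusted p = 1.0e-06) and *Fbxw7* by 0.24 (adjusted p = 0.00636), and with the length offset *Wwp1* alone was called (0.20, adjusted p = 0.00126), where 15.4% of all genes were higher. Neither was called with longest transcripts, *Wwp1* at 0.08 (adjusted p = 0.223). Upstream of *Klf2* and *Klf4* stands the ERK5 and MEF2 route, of which 2 of 4 tested genes rose, where 26.0% of all genes were higher and 24.8% lower. *Mef2a* was at 0.29 (adjusted p = 3.3e-08), *Mef2d* at 0.18 (adjusted p = 0.000676) and *Mapk7*, which encodes ERK5, at -0.01 (adjusted p = 0.947). None of the 4 was called with the length offset, beside 15.4% of all genes higher and 25.4% lower, and *Mef2a* changed sign to -0.08 (adjusted p = 0.0778). With longest transcripts *Mef2a* was again higher, at 0.09 (adjusted p = 0.0335).

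Of the 7 TGFβ pathway genes upstream of *Klf10* and *Klf11*, 3 were called higher, 1 was called lower and 3 did not pass the test, beside 26.0% of all genes higher and 24.8% lower. With the length offset 1 was called higher and 2 lower, beside 15.4% and 25.4% of all genes. *Tgfbr1*, a receptor gene called higher (0.19, adjusted p = 0.000684), lost its call with that offset (0.06, adjusted p = 0.339). *Smad3* was at 0.09 (adjusted p = 0.0156), with -0.00 under the length offset and a call as lower with longest transcripts (-0.08, adjusted p = 0.0308), so its direction depended on the offset. *Smad4* rose by 0.11 (adjusted p = 0.00369). It was not called with the GC offset (0.08, adjusted p = 0.0519) or without a filter on low counts (0.07, adjusted p = 0.178). *Smad2* was at -0.02 (adjusted p = 0.618). *Smad2* was called lower with the length offset, at -0.24 (adjusted p = 3.6e-06), and with longest transcripts, at -0.36 (adjusted p = 1.6e-09). The gene that fell was *Tgfb1*, the ligand, at -0.23 (adjusted p = 0.0137), named after its value was seen. Of the nuclear receptor genes upstream of *Klf9*, *Thrb* rose by 0.28 (adjusted p = 1.2e-10) from 473 ± 11.3 to 581 ± 11.7 CPM (SD, n = 3 each) and *Nr3c1*, the glucocorticoid receptor, by 0.28 (adjusted p = 1.4e-07), and both were called with the length offset at 0.12 and 0.10. With longest transcripts neither was, *Thrb* at 0.04 (adjusted p = 0.232) and *Nr3c1* at 0.03 (adjusted p = 0.597). *Thra* was at 0.12 (adjusted p = 0.0526) and was called higher with longest transcripts (0.16, adjusted p = 0.0153).

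Over these 7 lists together, 18 of 32 tested genes were higher and 4 lower, with a median log2 fold change of 0.18, where 26.0% of all genes were higher and 24.8% lower. With the length offset 11 were higher and 6 lower, beside 15.4% and 25.4% of all genes.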

How the data were processed

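Bulk mRNA libraries of GnRH-treated LβT2 cells, 3 fresh and 3 RNA-Best, were analysed. The authors aligned reads to GRCm38 with STAR 2.5.1b and counted them per gene with featureCounts 1.5.0-p1. The deposited values are estimated counts, not scaled for depth, and 9.36% to 16.3% of the values in a library are not whole (tolerance 0.001). The counting options for strand and shared reads are not given in the sources used here. All columns were used.

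CPM were computed from column totals. Counts were rounded and fitted over the whole table in R 4.3.3 with the quasi-likelihood test of edgeR 4.0.16 (TMM scaling, filterByExpr with a minimum count of 10, Benjamini-Hochberg adjustment), after tests on simulated data. A call is an adjusted p under 0.05. The SE given for edgeR was derived from the test, as the absolute log2 fold change divided by the square root of its F statistic. Limma 3.58.1 (voom) and DESeq2 1.42.0 were alternatives. So were other scalings and filters, rounding down, thinning, offsets for length or GC content (loess, span 0.5), a replicate block and leaving out each library. Lengths and sequences came from a GENCODE release on the same assembly, and promoters from RefSeq (GRCm38.p6). Depth ranged from 4909418 to 47438746 counts. A count of 0 allows up to 3 counts, and such limits cover counting error only. Pairs of fresh libraries gave a chi-square per gene of 1.82 to 2.21, and pairs of RNA-Best libraries 1.08 to 1.29. No library was thus identical to another. Counting error alone gives about 1, so repeat libraries of the same RNA cannot be told from separate cultures by this measure. The correlation of deviations between libraries of the same number was -0.00844, 0.0121 and -0.00770, so no pairing by number was seen. Counting error could hide such a pairing, so it is not excluded.

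The members and gene lists were chosen with earlier results of these data known. Named are all members, up to 3 most abundant genes of each list or marker set, any list gene that changed by 1 or more on the log2 scale, and the tested gene most like each member. *Klf14*, *Sp4*, *Sin3b*, *Sap30*, *Hdac2*, *Ctbp2*, *Crebbp*, *Ep300*, *Kat2b*, *Tgfb1*, *Tgfbr1*, *Tgfbr2*, *Smad7*, *Fshb*, *Gnrhr* and *Tek* fall outside this rule and were named after their values were seen.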

Additional observations from a re-analysis of the deposited data

How the results depend on the processing

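*Klf7* and *Klf9* kept their calls in all 18 alternatives. The count of higher members, 4, was 3 to 5 with libraries left out, 5 with the replicate block, although no pairing by number was seen, and 2 with block and length offset. The count of lower members, 1, was 0 with DESeq2 (1 at an unadjusted p under 0.05, and 1 by edgeR and voom), 0 after thinning and with the GC offset (0 unadjusted in both), 2 with the longest-transcript offset, an alternative chosen after seeing the data, and 0 to 1 with libraries left out (0 without RNA-Best replicate 3, 1 unadjusted). Over the 7 lists, higher calls went from 18 to 11 with the length offset, 7 with longest transcripts and 11 with block and length offset. They were 15 to 19 with libraries left out. Lower calls went from 4 to 2 with DESeq2, 7 without a filter, 2 after thinning and 2 to 5 with libraries left out (2 without fresh replicate 2). With the longest transcript the summed level was 85.2 CPM per kb in fresh and 94.6 in RNA-Best libraries. Log2 fold changes of members and named list genes that turned were, with the length offset, *Klf3* (-0.00373), *Klf13* (-0.0948), *Mef2a* (-0.0781) and *Smad3* (-0.000668), beside *Ctbp2* (-0.0108) and *Crebbp* (-0.0164) of the other list genes. With block and length offset they were *Klf2* (0.0458), *Klf3* (-0.0160), *Klf13* (-0.0839), *Mef2a* (-0.0837) and *Smad3* (-0.00501). With longest transcripts they were *Klf6* (-0.0140), *Klf13* (-0.175), *Mef2d* (-0.00442) and *Smad3* (-0.0798), beside *Crebbp* (-0.107), *Tgfbr1* (-0.0237), *Tgfbr2* (-0.0730) and *Smad7* (-0.0455) of the other list genes. The directions of these other genes are given here under the length offsets alone. With the GC offset they were *Klf2* (0.0123), *Klf6* (-0.0550), *Klf10* (-0.0440), *Ctbp1* (0.00464) and *Mapk7* (0.0820). Thinning turned *Klf2* (0.420), *Mapk7* (0.0501) and *Smad2* (0.0684), and the lack of a filter *Klf10* (-0.00798). With libraries left out, *Klf2* ran from -0.461 to 0.0889, *Smad2* from -0.0503 to 0.00731 and *Mapk7* from -0.0266 to 0.00549. The cause was not tested. Depth limits *Klf2* and *Klf4* most.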

Other observations

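For each member, the tested gene whose centred log2 CPM lay nearest over the 6 libraries was found among 14729 genes, as a description of likeness only. *Sik2*, a salt-inducible kinase gene, lay nearest to *Klf7*, at a Euclidean distance of 0.0992. The nearest gene to *Klf9* was *Unc13a*, a synaptic vesicle priming gene, at a distance of 0.0676 and a log2 fold change of 0.46. *Pum2* lay nearest to *Klf3* (0.0385), *Snap25* to *Klf11* (0.0279), *Naa30* to *Klf13* (0.0309) and *Cdkn2c* to *Klf16* (0.0262), with the distance after each. *Wdr25* lay nearest to *Klf2* (0.0871), *Hspa12b* to *Klf4* (0.0627), *Plpp3* to *Klf6* (0.0473) and *Cpsf3* to *Klf10* (0.0359). None of the 10 members was the nearest gene of another, which was likely beforehand with so few members among 14729 genes. The nearest other member ranked from 113 (for *Klf4*) to 5352 (for *Klf16*) among these genes. Of the 10, *Klf9* was closest to *Klf7*, at a distance of 0.779 and rank 899. Family genes outside the 10, such as *Klf5*, were left out of this search among members.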
